A study of Mus musculus with 3 samples.

Results

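Ribosomal proteins and translation factors were followed across 3 arrays of mouse neural retina. The genes were chosen by symbol: every probe set annotated to exactly 1 gene whose symbol is Rpl or Rps with a number (the Rps6k kinases aside), Rplp0 to Rplp2 or Rpsa, or begins with Eif or Eef (Eif2s3y aside). This gave 83 genes of the 8251 measured, namely 35 ribosomal protein genes (17 of the large subunit and 18 of the small) and 48 genes with an initiation or elongation factor symbol (40 Eif and 8 Eef). For each of the 24 genes with several probe sets, 1 set was used, with a plain suffix preferred and then the highest mean. The set used had a plain suffix in 76 genes and another suffix in 7.

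All samples were neural retinas of Rp1-/- mice, which lack the photoreceptor axoneme gene Rp1, on a mixed 129/SvEv and C57BL/6 background at postnatal day 21. Each RNA was a pool from 3 to 4 mice whose tissue was taken between 1 and 2 pm. The 3 pools form 1 group, and every pool carries the deletion. No wild-type retina was analysed here, so no value below measures an effect of the deletion, and no gene was tested between conditions. No probe set used here carries the symbol Rp1, so the deletion itself was not checked. The replicate numbers only name the pools.

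The ribosome is built of ribosomal RNA and many proteins, which are made in matched amounts in every cell. Initiation factors bring the small subunit, the initiator tRNA and the capped mRNA together, and elongation factors deliver aminoacyl-tRNAs and move the ribosome along. Photoreceptors renew their outer segments throughout life and so make protein at a high rate. Many mRNAs of ribosomal proteins and elongation factors start with a run of pyrimidines (the terminal oligopyrimidine or TOP pattern), through which growth signalling controls their translation.

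Each value is a linear signal per probe set and array, scaled so that the arrays share a trimmed mean. The background limits were 160.3, 80.7 and 107.1 in replicates 1, 2 and 3, set from 19 controls that match only bacterial or yeast RNA, and a gene with more signal counted as above background. All 8 measured rod markers of 9 listed were above background on every array, with summed signals of 124330, 183358 and 120780. All 7 lens markers (summed signals of 129344, 189792 and 134161), 2 of 5 pigmented cell markers and 2 of 4 red blood cell markers were also above background on every array. The summed pigmented cell signal was 1422, 12026 and 7835, and the summed red blood cell signal was 5490, 31716 and 8254. Replicate 1 was therefore lowest in both of these sums and replicate 2 highest. The ratio of 3′ to 5′ control probe sets was 1.31 to 1.5 for beta-actin and 0.845 to 0.929 for Gapdh. Over the 5006 genes above background on every array, log2 signals correlated at 0.824 between replicates 1 and 2, 0.822 between 1 and 3, and 0.937 between 2 and 3. Replicate 1 thus stood apart, and the count of wide ranges and the main counts of genes highest in replicate 2 are also given without it. Less RNA per cell and fewer cells of a type cannot be told apart in such pools. Precision is limited by having only 3 arrays.

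The promoter sequences bear on the TOP pattern. RefSeq promoter windows of assembly GRCm38.p6 were matched for 68 of the 83 genes, as 37 windows of 28 ribosomal protein genes and 55 windows of 40 factor genes. Windows on 1 chromosome were left out before matching, so genes there have none. The shares of all promoters below therefore cover the other chromosomes only. Windows of alternative starts of 1 gene can overlap. The sequences below run from 10 bases before the annotated start and are shown because a long pyrimidine run lies at or beside the start in the first 8, while the last 3 lack one there. Capitals mark the longest pyrimidine run within the printed bases.
Rpl7a (chr2:26910797-26910826, plus strand): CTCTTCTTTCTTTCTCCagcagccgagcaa
Rpl13a (chr7:45128726-45128755, minus strand): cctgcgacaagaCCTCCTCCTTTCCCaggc
Rps10 (chr17:27635225-27635254, minus strand): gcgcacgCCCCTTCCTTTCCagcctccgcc
Rps18 (chr17:33955646-33955675, minus strand): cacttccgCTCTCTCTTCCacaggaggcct
Rps27 (chr3:90213629-90213658, minus strand): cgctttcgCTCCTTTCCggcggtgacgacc
Eef1a1 (chr9:78481705-78481734, minus strand): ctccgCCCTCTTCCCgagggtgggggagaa
Eif2s3x (chrX:94212632-94212661, minus strand): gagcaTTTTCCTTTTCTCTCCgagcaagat
Eif3f (chr7:108934405-108934434, plus strand): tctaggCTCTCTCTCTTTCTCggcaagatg
Rps3a1 (chr3:86142649-86142678, minus strand): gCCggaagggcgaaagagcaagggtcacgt
Eif4a1 (chr11:69672404-69672433, minus strand): gtaacgTCacgtcgagttgcagagcgccgg
Eif5 (chr12:111538091-111538120, plus strand): cgacgtgcatgcgagCCaatgacaagagaa

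A run of 8 or more pyrimidines on the gene's strand, between 20 bases before and 50 after the start, was present in 19 of 37 ribosomal protein windows (51.4%). It was present in 18 of 55 factor windows (32.7%), against 25.4% of all 32851 promoter windows and 24.1% of windows of the other array genes above background. The median longest run was 9 bases for ribosomal proteins and 5 for factors, against 6 for all promoters and 5 for the other array genes above background. The strict pattern, a C at the annotated start followed by at least 4 pyrimidines, was found in 5 ribosomal protein windows (13.5%) and 2 factor windows (3.64%), against 2.51% of all and 2.30% of the other array genes above background. Annotated starts can lie some bases from the start used in retina, so the strict count depends on the annotation.

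Further motifs were searched on both strands over the whole 300 bases, and matches describe letters only. CCGGAA, the core bound by ETS-family factors, was in 17 ribosomal protein windows (45.9%) and 24 factor windows (43.6%), against 14.9% of all promoters and 26.0% of the other array genes above background. AAGATGG, the core bound by YY1, was in 9 ribosomal protein windows (24.3%) and 5 factor windows (9.09%), against 6.34% of all and 7.16% of the other array genes above background. GGGCGG, the GC box, was in 21 (56.8%) and 37 windows (67.3%), against 35.7% of all promoters and 63.2% of the other array genes above background. TATAAA was in 4 (10.8%) and 3 windows (5.45%), against 13.6% of all promoters and 7.74% of the other array genes above background, so the ribosomal protein share lay between these 2 shares. The cyclic AMP response element TGACGTCA was in 0 ribosomal protein windows and 1 factor window (1.82%), against 1.79% of all and 2.86% of the other array genes above background. The plot of motif shares sets ribosomal protein, factor and all promoter windows side by side. It leaves out TGACGTCA and the other array genes above background, which for CCGGAA and GGGCGG lay closer to the members.

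**Figure D1:**
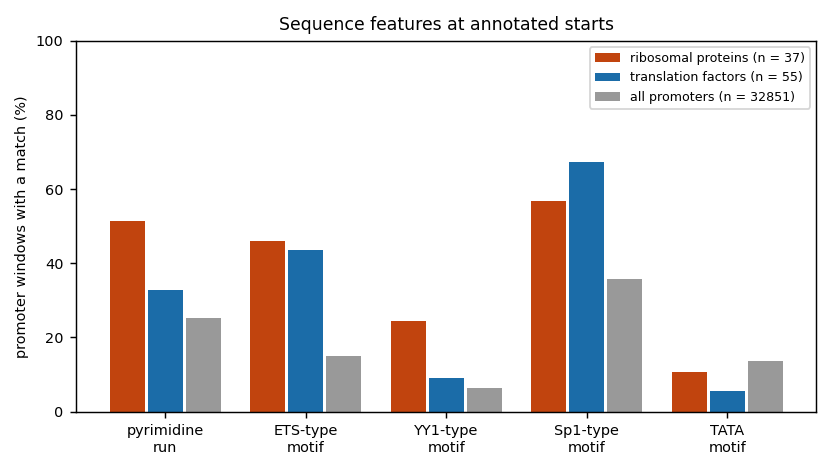
Share of promoter windows (percent) that hold a pyrimidine run of at least 8 bases near the start, or on either strand the ETS-type, YY1-type, Sp1-type (GC box) and TATA motifs spelled out in the text, for ribosomal protein windows, factor windows and all promoter windows. The pyrimidine run was in 51.4% of ribosomal protein windows, against 25.4% of all.

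Of the 83 genes, 59 were above background on every array (71.1%), against 60.7% of all 8251 genes. A further 15 were above it on some arrays and 9 on none. The 59 comprised 24 of 35 ribosomal protein genes and 35 of 48 factor genes. The log2 range, the highest minus the lowest log2 signal of the 3 arrays, had a median of 0.78 over these 59 genes and 0.69 over all genes above background. The median log2 SD was 0.39, against 0.36 for all such genes. The range was 1 or more, a difference of at least a doubling, in 12 of the 59 genes (20.3%), against 28.3% of all 5006. Just outside and just inside this limit lay ranges of 0.99 and 1.01. In 6 of the 12 the highest signal was in replicate 1, in 4 it was in replicate 2 and in 2 in replicate 3. Over all 5006 genes, whatever their range, these shares were 42.6%, 33% and 24.4%, so the 12 did not stand out. Between replicates 2 and 3 alone, 5 of 63 genes (7.94%) had such a range, against 5.66% of 5739 genes, and 4 of these 5 were among the 12.

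Of the 12 large subunit genes above background on every array, 8 were highest in replicate 2, against 33% of all genes above background and 67% of all genes with a mean signal of 2000 or more. Rplp0, the base of the stalk that recruits elongation factors, had signals of 5769, 11653 and 8371 in replicates 1, 2 and 3, a mean of 8598 ± 2948 (SD, n = 3) and a log2 range of 1.01. Rpl6 gave 3081, 6135 and 4240, and Rpl8, which lies near the catalytic centre, gave 4712, 7721 and 5893. Rpl7a gave 2909, 5006 and 3645. In each of these genes replicate 2 was highest and replicate 1 lowest. Rpl10a, the protein tagged in mouse lines for ribosome purification, gave 3677, 5810 and 3955, and Rpl41, one of the shortest known proteins, gave 19555, 31827 and 22693. Rpl19 gave 4877, 7076 and 4428, with replicate 3 lowest instead. Rpl37a was the exception among the bright large subunit genes, with 3135, 4085 and 6755, so that replicate 3 was highest.

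Several dimmer large subunit genes had another order. Rpl13a, which in human cells also acts as a translation inhibitor after interferon, gave 987, 811 and 554, with replicate 1 highest. Rpl22, needed in mice for T cell development, gave 442, 620 and 456 and kept the order of Rplp0, with replicate 2 highest and replicate 1 lowest. Rpl32, a common reference gene, had the widest range of the 59 genes above background on every array, with 1904 in replicate 1 and 101 and 256 in replicates 2 and 3, a log2 range of 4.24 and 18.8-fold. Its only probe set has an r suffix, which marks sets with relaxed probe selection rules. Rpl7l1, a paralogue of Rpl7 that acts in ribosome assembly, gave 1003, 253 and 143, a 7.01-fold difference. Both genes were far higher in replicate 1 than in either other pool. Rpl39l, a paralogue of Rpl39 known from testis, was above background in replicate 1 alone, with 292, 16.9 and 77.3. Rpl39 itself passed in replicate 3 alone, with 126, 43.5 and 136.

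**Figure D2:**
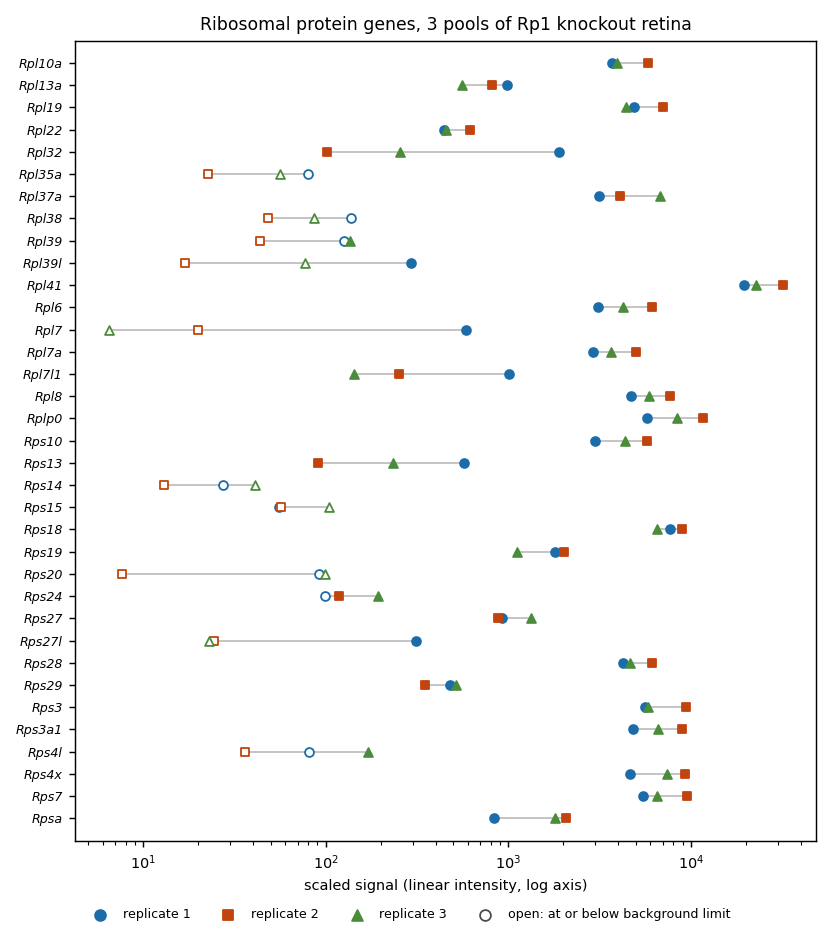
Scaled signal (linear intensity, log axis) of the 35 ribosomal protein genes in the 3 pools; each row is a gene, each marker a pool, and open markers lie at or below the background limit. Most genes right of 2000 have replicate 2 at the high end, while Rpl32, Rpl7l1 and Rps13 have replicate 1 there.

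Among small subunit genes, Rps3, which lies at the mRNA entry channel, had signals of 5616, 9370 and 5813. Rps4x gave 4640, 9236 and 7354, and Rps7 gave 5458, 9463 and 6495. Replicate 2 was highest in all of these. Rps10 gave 2990, 5722 and 4345, Rps3a1 gave 4793, 8908 and 6587, and Rps28 gave 4258, 6119 and 4661, in the same order of pools. Rps18 gave 7641, 8962 and 6499, with a log2 range of 0.46, the narrowest of the bright ribosomal protein genes under this scaling. After quantile normalization its range was 0.51, and Rpl41 had 0.12 and Rpl8 had 0.16. Rpsa, which is also known as the laminin receptor precursor, followed Rps13 as the widest of the small subunit genes above background on every array, with 839, 2079 and 1805 and a log2 range of 1.31. There replicate 1 stood apart from the other pools, whose values differed by a log2 range of 0.20.

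Rps19, mutated in the human anaemia named after Diamond and Blackfan, gave 1807, 2024 and 1118, with replicate 3 lowest. Rps27 gave 924, 878 and 1324, and Rps29 gave 481, 347 and 515, so replicate 3 was highest in both. Rps13 gave 570, 90.3 and 234, a 6.32-fold difference on an r probe set. Rps27l, a paralogue of Rps27 that p53 induces in human cells, was above background in replicate 1 alone, with 312, 24.3 and 22.9, at least 2.91-fold above the background limit of replicate 3. The only Rps27l probe set also has an r suffix. The Rps4l probe set used, for a paralogue of Rps4x, passed in replicate 3 alone, with 80.8, 36.0 and 170, whereas its other set was above background on every array, with 606, 1046 and 744.

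The probe sets of 5 ribosomal protein genes were above background on no array, namely Rpl35a, Rpl38, Rps14, Rps15 and Rps20. Rpl35a gave 79.5, 22.6 and 56.3, and Rpl38 gave 137, 48.3 and 86.1. Rps15 gave 55.5, 57.1 and 104, and Rps20 gave 92.3, 7.61 and 99.3. Rps14, whose loss marks a human myelodysplastic syndrome, gave 27.4, 12.9 and 41.0. Such a signal describes the probe set and does not show that the transcript was missing. Rps24 and Rpl7 show how far probe sets of 1 gene can part. The Rps24 set used gave 98.5, 118 and 194, and its other set gave 13647, 24630 and 18027. The Rpl7 set used gave 585, 19.8 and 6.50, and its other set gave 6895, 9950 and 6822. The 2 bright sets share a single source record in the annotation, so which of the 2 genes each one measures is uncertain. A further 39 probe sets list a ribosomal protein gene together with other symbols and were not counted as genes. Of these, 34 were above background on every array. Replicate 2 was highest in 22 of the 34, beside 33% of all genes above background and 67% of those with a mean signal of 2000 or more. Replicate 1 was lowest in 20 of the 34, beside 36% and 67.4%. The 34 include both bright and dim sets, so neither share is matched to their level.

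Initiation starts with eIF1 and eIF1A, which keep the small subunit open for scanning. Eif1b had the narrowest range of the 59 genes under the scaling used here, with signals of 2333, 2517 and 2302 and a log2 range of 0.13. Its range was 0.56 with scaling to a common median, where Eif2ak3 had 0.20, and 0.30 after quantile normalization, where Eif3b had 0.058. Eif1a gave 431, 935 and 763, and its X-linked relative Eif1ax gave 601, 986 and 782, with replicate 1 lowest in both. A second Eif1ax set gave 841, 880 and 543, with replicate 3 lowest. The initiator tRNA is carried by eIF2. Its gamma subunit gene Eif2s3x gave 1967, 3482 and 3802, and its beta subunit gene Eif2s2 gave 122, 206 and 231, the first of these below background. Replicate 1 was low in both subunit genes.

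The exchange factor eIF2B reloads eIF2 with GTP, and mutations in it cause a white matter disease in humans. All 4 measured subunit genes were above background on every array, against 60.7% of all genes. Eif2b1 gave 345, 633 and 329, Eif2b2 gave 635, 537 and 467, and Eif2b4 gave 579, 762 and 799. Eif2b5, the catalytic subunit, gave 688, 642 and 258, a log2 range of 1.41. Its second probe set gave 663, 323 and 194, and replicate 3 was lowest and replicate 1 highest in both sets. The subunit genes therefore shared no common order of pools.

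The kinases that phosphorylate eIF2 under stress differed among themselves. Eif2ak3 (PERK), which responds to unfolded protein in the endoplasmic reticulum, gave 265, 216 and 217, a log2 range of 0.30. Eif2ak4 (GCN2), which senses uncharged tRNA, gave 331, 223 and 223. Both were slightly higher in replicate 1. Eif2ak2 (PKR), activated by double-stranded RNA, gave 206, 97.8 and 88.1, the last below background. Eif2ak1 (HRI), the haem-regulated kinase of red cell precursors, gave 149, 551 and 143, and replicate 2 was 3.85-fold above replicate 3. The haemoglobin genes were also highest in replicate 2, with 4077, 25566 and 6661 for Hba-a1 and 1218, 5536 and 1207 for Hbb-b2. Of the other red cell markers, Alas2 gave 82.8, 505 and 145, and Slc4a1 gave 113, 109 and 240. Their part in the Eif2ak1 signal was not tested.

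The scaffold eIF3 bridges the small subunit and the mRNA cap complex, and all 10 of its measured genes were above background on every array. The share of all genes above it was 60.7%. Replicate 2 was highest in 7 of the 10 and replicate 1 lowest in 6, against 33% and 36% of all genes above background. Without replicate 1, replicate 2 was above replicate 3 in 9 of the 10, against 51.3% of all genes above background on both arrays. Among genes with a mean signal of 2000 or more, these 3 shares were 67%, 67.4% and 75%. Eif3c and Eif3k were that bright, and the other eIF3 genes were dimmer. Eif3c gave 1979, 3566 and 2896, Eif3l gave 1304, 2396 and 2106, and Eif3k gave 1657, 2484 and 2382. Eif3a, which anchors the complex, gave 313, 470 and 354, and Eif3d, which can bind the cap itself, gave 1447, 1704 and 1270. Eif3j1, which joins the complex loosely, gave 596, 878 and 602. Eif3b was among the steadiest genes, with 1205, 1359 and 1277 and a log2 range of 0.17. Eif3e and Eif3m were lowest in replicate 3, with 672, 560 and 402 and with 1266, 1235 and 930. Eif3f went furthest from the pattern, with 285, 157 and 364 and a log2 range of 1.22, replicate 2 being lowest.

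Cap recognition gave some of the widest differences. Eif4e, the cap-binding protein, gave 565, 66.3 and 87.2, so that it was above background in replicate 1 alone, at least 7.0-fold above the limit of replicate 2. Its other probe set, with an r suffix, gave 49.6, 8.92 and 39.7 and was above background on no array. Eif4e2, a cap-binding relative that represses translation, gave 656, 232 and 287, a log2 range of 1.5. Of the inhibitors of eIF4E, Eif4ebp2, the main form in brain, gave 2096, 1221 and 1566, and Eif4ebp1 gave 137, 62.6 and 176. Replicate 1 was highest in Eif4e, Eif4e2 and Eif4ebp2. The helicase gene Eif4a1 gave 959, 944 and 790, a log2 range of 0.28, whereas Eif4a2, the form abundant in neurons, gave 4276, 6172 and 7500. The only Eif4a1 probe set has an r suffix. The scaffold relatives Eif4g2 and Eif4g3 ran in opposite order, with 750, 1210 and 1053 and with 1519, 896 and 791.

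Further Eif genes serve the last steps of initiation or other steps. Eif5, which triggers GTP hydrolysis on eIF2, gave 675, 785 and 925, and Eif5b, which joins the subunits, gave 356, 377 and 275. Eif6, which keeps free large subunits from joining, gave 279, 574 and 360, a log2 range of 1.04. Eif5a, which carries the modified residue hypusine, gave 182, 70.6 and 140, replicate 2 being below background. Eif2a gave 554, 373 and 295, and Eif2d, which can deliver tRNA independently of eIF2, gave 40.2, 370 and 433, at least 2.70-fold above the limit of replicate 1 in replicate 3. The other Eif2d set ran the other way, with 351, 92.5 and 185, all above background. The 2 Eif genes above background on no array were Eif4h and Eif4enif1, a helicase cofactor and an eIF4E shuttling protein, with 156, 28.7 and 30.4 and with 108, 15.4 and 68.9.

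**Figure D3:**
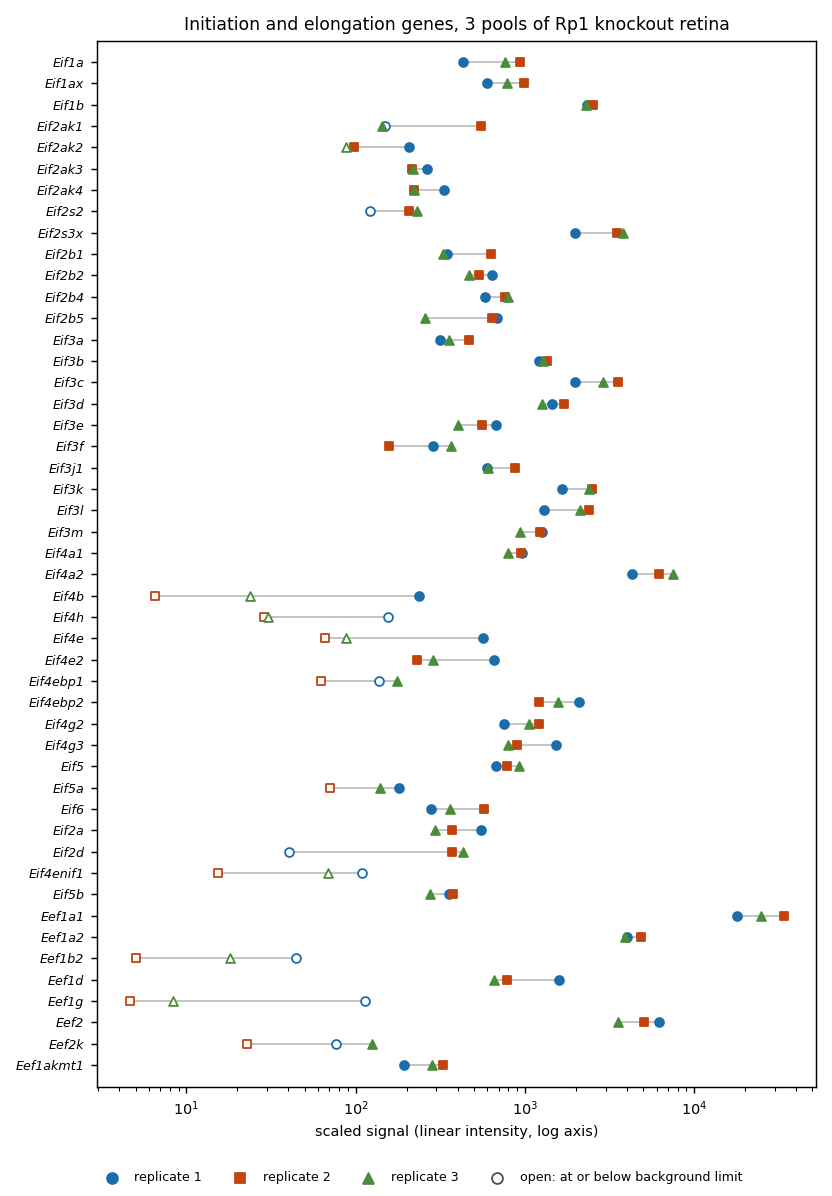
Scaled signal (linear intensity, log axis) of the 48 initiation and elongation genes in the 3 pools, drawn as for the ribosomal proteins, with open markers at or below the background limit. Eif1b, Eif3b and Eif4a1 have pools nearly on top of one another, while Eif4e, Eif4b and Eif2d have a pool far from the others.

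In elongation, Eef1a1 and Eef1a2 encode the factor that delivers aminoacyl-tRNA, and neurons and muscle switch to Eef1a2 as they mature. Eef1a1 gave 17981, 33872 and 24873, with replicate 2 highest and replicate 1 lowest. Eef1a2 gave 4038, 4876 and 3921, a log2 range of 0.31. Eef2, which moves the ribosome by a codon, gave 6222, 5049 and 3570, with replicate 1 highest. Eef1d, part of the exchange factor for eEF1A, gave 1582, 787 and 662, a log2 range of 1.26. Eef2k, the kinase that halts eEF2, was above background in replicate 3 alone, with 76.7, 22.8 and 125. Eef1b2 and Eef1g, also parts of the exchange factor, were above background on no array, with 44.2, 5.01 and 18.2 and with 113, 4.61 and 8.30, although a second Eef1b2 probe set gave 55.9, 217 and 177. Eef1akmt1, a methyltransferase of eEF1A that the symbol rule takes in, gave 194, 327 and 281.

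Several probe sets of 1 gene did not always give 1 order. Of the 24 genes with more than 1 set, 10 had the same highest array in all of them. Among the 7 genes with at least 2 sets above background on every array, 5 had the same highest array in those sets. The exceptions were Eif1a and Eif4b. The same shares over all genes with several sets are not given here, so the counts do not show whether such differences are particular to the members. The 4 sets of Eif4b, a helicase cofactor, gave 238, 6.51 and 23.9 in the set used, then 999, 1000 and 1470, 505, 767 and 495, and 48.5, 8.41 and 13.2. The other sets of Rps4x, Rpl19, Eif3e, Eif5b and Rps29 were at or below background on at least 1 array.

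Most ribosomal protein genes were highest in the same pool. Each gene's deviation on an array was taken as its log2 signal minus the mean of the other arrays. The median deviation of the 24 ribosomal protein genes above background was -0.39, 0.57 and -0.10 in replicates 1, 2 and 3. For the 35 factor genes it was -0.12, 0.19 and -0.14, and for all 5006 genes it was 0.06, -0.01 and -0.04. Replicate 2 was highest in 17 of the 24 ribosomal protein genes and in 17 of the 35 factor genes, against 33% of all genes. Replicate 1 was lowest in 15 and 16 of them, against 36% of all genes. Replicate 1 was highest in 4 and 13 of them, against 42.6%, and replicate 3 was highest in 3 and 5, against 24.4%. Replicate 2 was lowest in 4 ribosomal protein genes and 4 factor genes, against 32.4%, and replicate 3 was lowest in 5 and 15, against 31.6%. Between replicates 2 and 3 alone, replicate 2 was the higher in 19 of 25 ribosomal protein genes and 28 of 38 factor genes, against 51.3% of 5739 genes. With replicate 1 left out, the median deviation of ribosomal proteins in replicate 2 was 0.44. With replicate 2 left out, it was -0.17 in replicate 1 and 0.17 in replicate 3, the second opposite in sign to the value over all 3 pools.

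**Figure D4:**
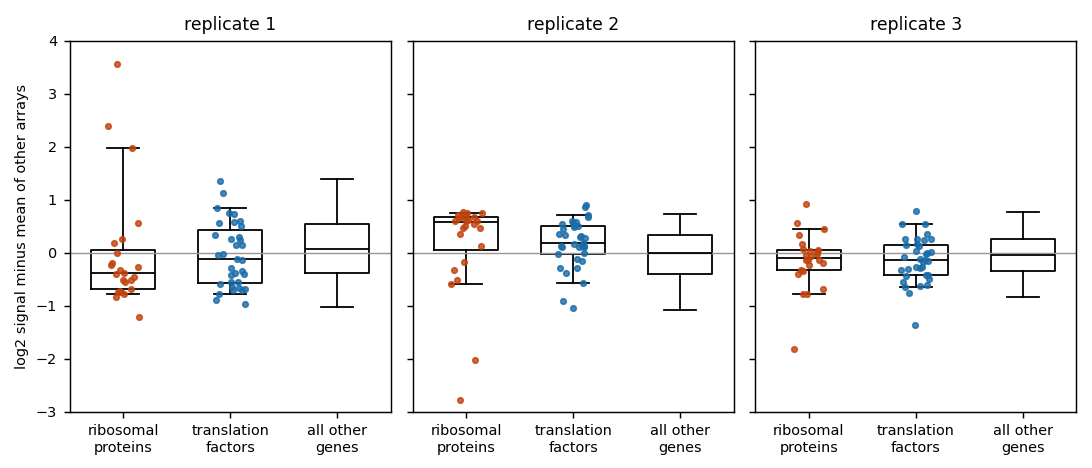
Deviation of each gene on each array (log2 signal minus the mean of the other arrays) for ribosomal proteins, factors and all other genes above background; boxes show the median and quartiles, whiskers the 5th and 95th percentiles, and points the members. The ribosomal protein medians are -0.39, 0.57 and -0.10.

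The same order was common among bright genes outside the list. Of the 15 ribosomal protein genes with a mean signal of 2000 or more, 14 were highest in replicate 2 and 13 lowest in replicate 1. Their median deviations were -0.52, 0.62 and -0.07. Of the 8 factor genes as bright, 5 were highest in replicate 2 and 5 lowest in replicate 1, with medians of -0.61, 0.31 and 0.07. Of the 513 other genes as bright, 340 (66.3%) were highest in replicate 2 and 343 lowest in replicate 1, with medians of -0.36, 0.38 and 0.03. Over all genes of that brightness these shares were 67% and 67.4%. Between replicates 2 and 3 alone, replicate 2 was the higher in 14 of the 15 ribosomal protein genes, 6 of the 8 factor genes and 382 of the 513 others, and in 75% of all genes as bright. Over the 9 ribosomal protein genes under 2000 and above background the medians were 0.26, -0.33 and -0.20, against 0.14, -0.05 and -0.05 for the other genes under 2000. Of these 9, 4 were highest in replicate 1, 3 in replicate 2 and 2 in replicate 3. This lay close to the other genes under 2000, with 46.3%, 28.8% and 24.9%.

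Control probe sets moved with the same arrays. All 9 probe sets for transcripts added at hybridisation were highest in replicate 2, with mean signals of 12454, 17399 and 10850 and median deviations of -0.17, 0.42 and -0.23. The 3 Gapdh sets were all highest in replicate 2 and lowest in replicate 1, with median deviations of -0.31, 0.46 and -0.19. The 3 beta-actin sets were all lowest in replicate 1, with -0.64, 0.41 and 0.12. The 99th percentile of signal was 5598, 8232 and 6836 and the median 295.7, 216.4 and 249.8, so replicate 2 had the highest upper end and the lowest middle of signal, and replicate 1 the reverse. The part of these array differences in the ribosomal protein values was not tested.

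Other normalizations changed the size of the ribosomal protein medians and kept their signs. After quantile normalization, which gives all arrays 1 distribution, the medians of ribosomal proteins were -0.07, 0.20 and -0.10, and replicate 2 was highest in 12 of 24 genes, against 34.3% of all genes. Replicate 1 was lowest in 9 of 24, against 39.7%. For the 15 bright ribosomal protein genes they were -0.09, 0.24 and -0.09, with 10 of 15 highest in replicate 2. For the 8 bright factor genes they were -0.24, -0.01 and 0.14, with 1 of 8 highest in replicate 2, so the sign in replicate 2 turned. For the 513 other bright genes they were 0.01, 0.05 and -0.01, with 36.1% highest in replicate 2 and the signs in replicates 1 and 3 turned. Scaling to a common median instead, which shifts log2 signals by -0.22, 0.23 and 0.02, gave ribosomal protein medians of -0.74, 0.90 and -0.08. The log2 range was then 1 or more in 17 of 24 ribosomal protein genes and 18 of 35 factor genes, against 34.2% of all genes.

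**Figure D5:**
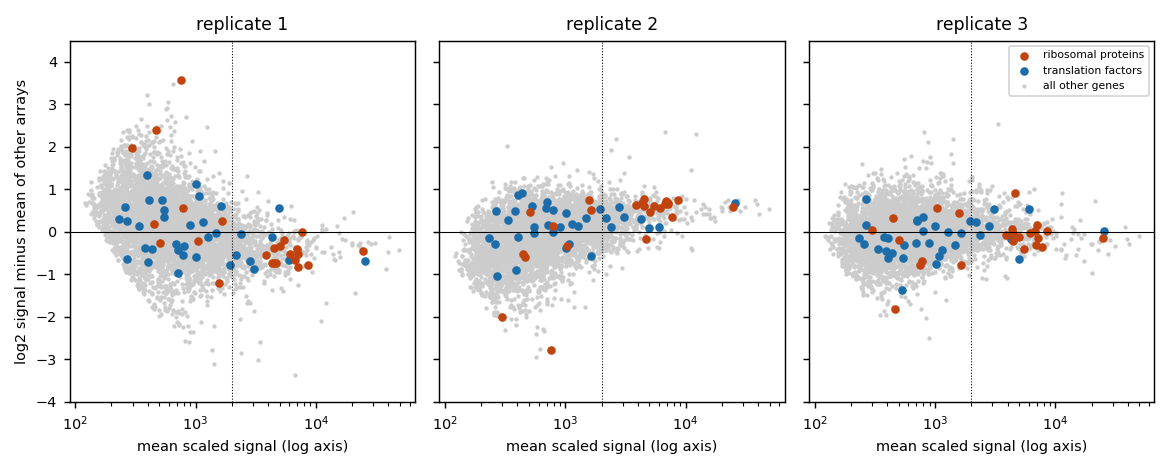
Deviation of each gene on each array (log2 signal minus the mean of the other arrays) against its mean scaled signal (log axis), with the dotted line at 2000. Right of the line, 14 of 15 ribosomal protein genes lie above 0 as the highest pool in replicate 2, and most other genes there do too.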

How the data were processed

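Neural retina RNA was measured on 3 one-colour Affymetrix U74Av2 arrays, and the deposited values are linear intensities for 12488 probe sets. The software and settings behind these deposited intensities are not given in the sources used here. Of the 12422 probe sets that are not controls, 10833 carried 1 symbol in the platform annotation, 396 several and 1193 none. Genes were named from single-symbol probe sets alone. Each array was scaled to a common mean after trimming 2% at each end (factors 0.998, 1.00 and 1.00). Before taking log2, each array was floored at its 5th percentile. The background limit is the 95th percentile of the 19 bacterial and yeast control probe sets. All 3 samples form 1 group, numbered in accession order, so no test was made. The members and lists were chosen with earlier results of these data known. Named genes were textbook members, the 8 widest and 5 narrowest ranges, members above background on no array, and up to 6 whose probe sets differ; other members named here were chosen after their values were seen. Alternatives covered scaling, background limit, probe set choice, floor and leaving out each array. Counts between replicates 2 and 3 alone, and the split at a mean signal of 2000, were chosen after seeing the data. The steps were tested on simulated data. All 83 symbols were in the RefSeq gene table, and promoter sequences come from RefSeq (GRCm38.p6). Python 3.11.15, numpy 2.4.6, pandas 2.3.3 and matplotlib 3.10.9 were used.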

Additional observations from a re-analysis of the deposited data

How the results depend on the processing

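Of 119 values recomputed under an alternative, 109 moved by less than the replicate spread or by less than 1.5 times for counts. For median deviations this spread was the median log2 SD, 0.42 for ribosomal proteins and 0.38 for factors. Most of the medians are smaller than that, so the count of 109 says little about how steady they were. The ribosomal protein medians of -0.39 and 0.57 in replicates 1 and 2 became -0.07 and 0.20 after quantile normalization, and both are among the 109. The count of members with a log2 range of 1 or more was 12 of 59 as reported (20.3%), against 1418 of 5006 genes (28.3%). With scaling to a common median it was 35 of 59, against 1713 of 5006 genes (34.2%). The member share was thus below that of all genes as reported and above it with a common median. With the median control as background limit the count was 24 of 74, beside 3041 of all genes above that limit. When a gene's probe sets were averaged it was 20 of 64, beside 1488 of all genes then above background. The number of those genes is not printed here, so these 2 counts are not compared as shares. It was 46 of 59 at a range of 0.5 (3482 of 5006 genes) and 4 of 59 at a range of 1.5 (491 of 5006). Among members and genes with a mean signal of 2000 or more, chosen after seeing the data, the median deviation of factors was -0.61 in replicate 1 and 0.068 in replicate 3, the second against -0.14 as reported. Leaving out 1 array gave -0.60 to -0.17, 0.44 to 0.60 and -0.44 to 0.17 for ribosomal proteins in replicates 1, 2 and 3. For factors it gave -0.20 to 0.031, 0.20 to 0.23 and -0.23 to -0.03. The sign turned in replicate 3 for ribosomal proteins and in replicate 1 for factors. It gave a median log2 SD of 0.29 to 0.48, 60 to 63 members above background and 5 to 10 with a range of 1 or more. Without replicate 1 the last count was 5 of 63, against 5.66% of 5739 genes. The cause was not tested. Of 1079 member ranges recomputed, 936 stayed within the gene's own SD. No paired analysis was possible because there is 1 group. Signals near the background limit set what can be ranked.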

Other observations

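The order of pools was also read for genes of neighbouring steps. Of 61 measured mitochondrial ribosomal protein genes, which serve the separate ribosome of the mitochondrion, 50 were above background on every array (82.0%). The share of all genes was 60.7%. The median deviations of the 50 were 0.10, 0.13 and -0.29 in replicates 1, 2 and 3. Replicate 3 was lowest in 31 of these 50, against 31.6% of all genes above background, and replicate 2 was highest in 26, against 33%. Mrpl34 gave 251.9, 1575 and 1049, and Mrps26 gave 976, 337 and 294. Of 18 measured aminoacyl-tRNA synthetase genes, 17 were above background on every array (94.4%), against 60.7% of all genes. The 17 had median deviations of 0.18, 0.19 and -0.39. Replicate 3 was lowest in 10 of them, against 31.6%, and replicate 2 highest in 7, against 33%. Vars, which charges valine tRNA, gave 789, 279 and 399.

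Of 19 ribosome biogenesis genes, 16 were above background, against 60.7% of all genes, and 6 of the 16 had a log2 range of 1 or more, against 28.3%. Replicate 2 was highest in 6 of the 16, against 33% of all genes above background, and replicate 1 in 7, against 42.6%, so both lay near those shares. The nucleolar proteins Ncl and Npm1 gave 1775, 2395 and 1480 and 1846, 2518 and 1347, with replicate 2 highest in both. Rrs1 gave 584, 131 and 153, and Nop10 gave 1509, 3280 and 3329. All 7 release, recycling and poly(A)-binding genes were above background on every array, against 60.7% of all genes. Gspt1, a release factor, gave 447, 1305 and 838, and Pabpc1, which binds the poly(A) tail, gave 1661, 2481 and 2583. Of 11 growth and stress regulators, 7 were above background on every array (63.6%), close to the 60.7% of all genes. Atf4, whose translation rises when eIF2 is phosphorylated, gave 4446, 4543 and 3949, its target Ddit3 gave 893, 552 and 354, and Asns gave 1595, 2417 and 2339. Mtor, the kinase that governs TOP mRNAs, gave 1594, 1050 and 950, and Myc was above background on no array.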
